A study of Mus musculus with 22 samples.

Results

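Keratins are the intermediate filament proteins of epithelial cells, and the mouse genes analysed here are the 52 whose single gene symbol on the array is Krt followed by a digit (keratin-associated Krtap genes left out), out of 19752 genes with a single symbol. They were taken by symbol, and each had 1 probe. RNA came from thymic medullary epithelial cells (MECs), sorted from treated C57Bl/6 mice by DAPI exclusion, absence of CD45, low Ly51 and high MHC class II, and was hybridised to Affymetrix ST1.0 gene arrays. The 22 arrays were of Aire knockout (KO, Aire-/-) MECs from mice given Etopo (2 arrays, 6 weeks of age), Topo (3 arrays, 6 weeks), both (EtopoTopo, 2 arrays, 4 weeks) or the vehicle DMSO (3 arrays, 6 weeks), and of wild type (WT, Aire+/+) MECs under Etopo (3 arrays, 2 of 6 weeks and 1 of 4 weeks), Topo (3 arrays, 6 weeks), EtopoTopo (3 arrays, 4 weeks) or DMSO (3 arrays, 2 of 6 weeks and 1 of 4 weeks). Etopo and Topo are usual short forms of etoposide and topotecan, which inhibit topoisomerase II and topoisomerase I, although no label writes them in full, and neither dose nor duration is given in the sources used here.

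Aire is a regulator with which mature MECs transcribe many genes of peripheral tissues, so that developing T cells meet those self antigens in the thymus. Keratins pair, a basic type II chain with an acidic type I chain, and each epithelium uses its own pairs: Krt8 with Krt18 in simple epithelia, Krt5 with Krt14 in basal cells of stratified epithelia, Krt1 with Krt10 in the upper epidermis, Krt4 with Krt13 in mucosa, Krt71 with Krt25 in the inner root sheath of the hair follicle, and the hair keratins in hair shaft and nail. In the thymus, keratins of simple and basal type mark cortical and medullary epithelium, while keratins of cornifying epidermis also mark MECs that have passed the Aire-expressing stage. The members comprised 28 type I and 24 type II genes, of which 27 lie on chromosome 11 and 25 on chromosome 15, and they were grouped as suprabasal epidermal (6), mucosal and corneal (4), basal stratified (3), wound and appendage inducible (5), simple epithelial (6), inner root sheath (8), hair and nail (13) and other (7) keratins.

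Levels are log2 of the deposited intensity, and every change is a difference of log2 group means given with its standard error (SE) from the limma fit. A gene was called changed at a Benjamini-Hochberg adjusted p under 0.05 over all 19752 genes (limma). As a measure of probe background, the 1190 olfactory and vomeronasal receptor genes, which are mostly silent outside sensory neurons, were taken, and 95% of them had a group mean below 6.93 to 7.46, by group. By this dim level, 45 of the 52 keratins were above background in at least 1 group and 7 were not (Krt2, Krt26, Krt28, Krt32, Krt39, Krt74 and Krt86). Keratins form near-identical families, such as Krt6a with Krt6b, Krt33a with Krt33b and Krt14 with Krt16 and Krt17, so probes may share signal, and members of these families are uncertain as single genes. Levels of different keratins are not compared, since probes differ in brightness.

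Array-wide values that touch these results were as follows. All 11 mature MEC markers were above the dim level in every group. Array median intensity was 236.15 to 263.57, and the spread of log2 values, measured as the distance between their upper and lower deciles, was 3.60 on KO EtopoTopo 1, against 4.07 to 4.71 on the other 21 arrays. KO Topo 1 also stood apart from its replicates, with a spread of 4.16, against 4.59 on KO Topo 2 and 4.69 on KO Topo 3. The median of the mostly silent receptor genes was 5.61, 5.22 and 5.14 on these 3 arrays. The mean of thymocyte markers was 8.72 on KO DMSO 1 and 8.30 on WT DMSO 1, against 6.97 to 7.62 on the other 20 arrays. The labels call 3 arrays male (WT DMSO 1, WT Etopo 2 and WT Topo 2), yet on all 22 arrays the X-inactivation transcript Xist was at 11.38 to 12.56 and the Y-linked gene Eif2s3y at 3.71 to 4.32. The titles of WT EtopoTopo 1 and 2 name both inhibitors while their treatment label gives Etopo only. The Aire probe read 11.43 to 12.96 on KO arrays and 11.27 to 12.44 on WT arrays, so it does not check the deletion. The labels leave unsaid whether arrays come from separate mice or pooled mice, and the p-values thus cover only array-to-array spread, part of which may be technical.

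Without Aire, keratin transcripts were lower in many members of the family, with the simple epithelial pair Krt8 and Krt18 among the exceptions. Under DMSO, 26 of 52 keratins fell in KO MECs and 1, Krt18, rose, where 12% of all genes tested fell and 7.4% rose (19.4% called in all). The median keratin change was -0.54, against -0.01 over all genes, and 47 of 52 means were lower in KO. The median of the mostly silent receptor genes was also lower, at 5.15 in KO DMSO and 5.25 in WT DMSO. Keratin means that were lower by about as much cannot be told from background. On every KO DMSO array 34 keratins were below all WT DMSO arrays, which held for 18.2% of all genes. Krt39 and Krt86, called with the others, were below the dim level in every group. Bulk arrays cannot tell fewer cells that express a keratin from less RNA per cell.

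**Figure D1:**
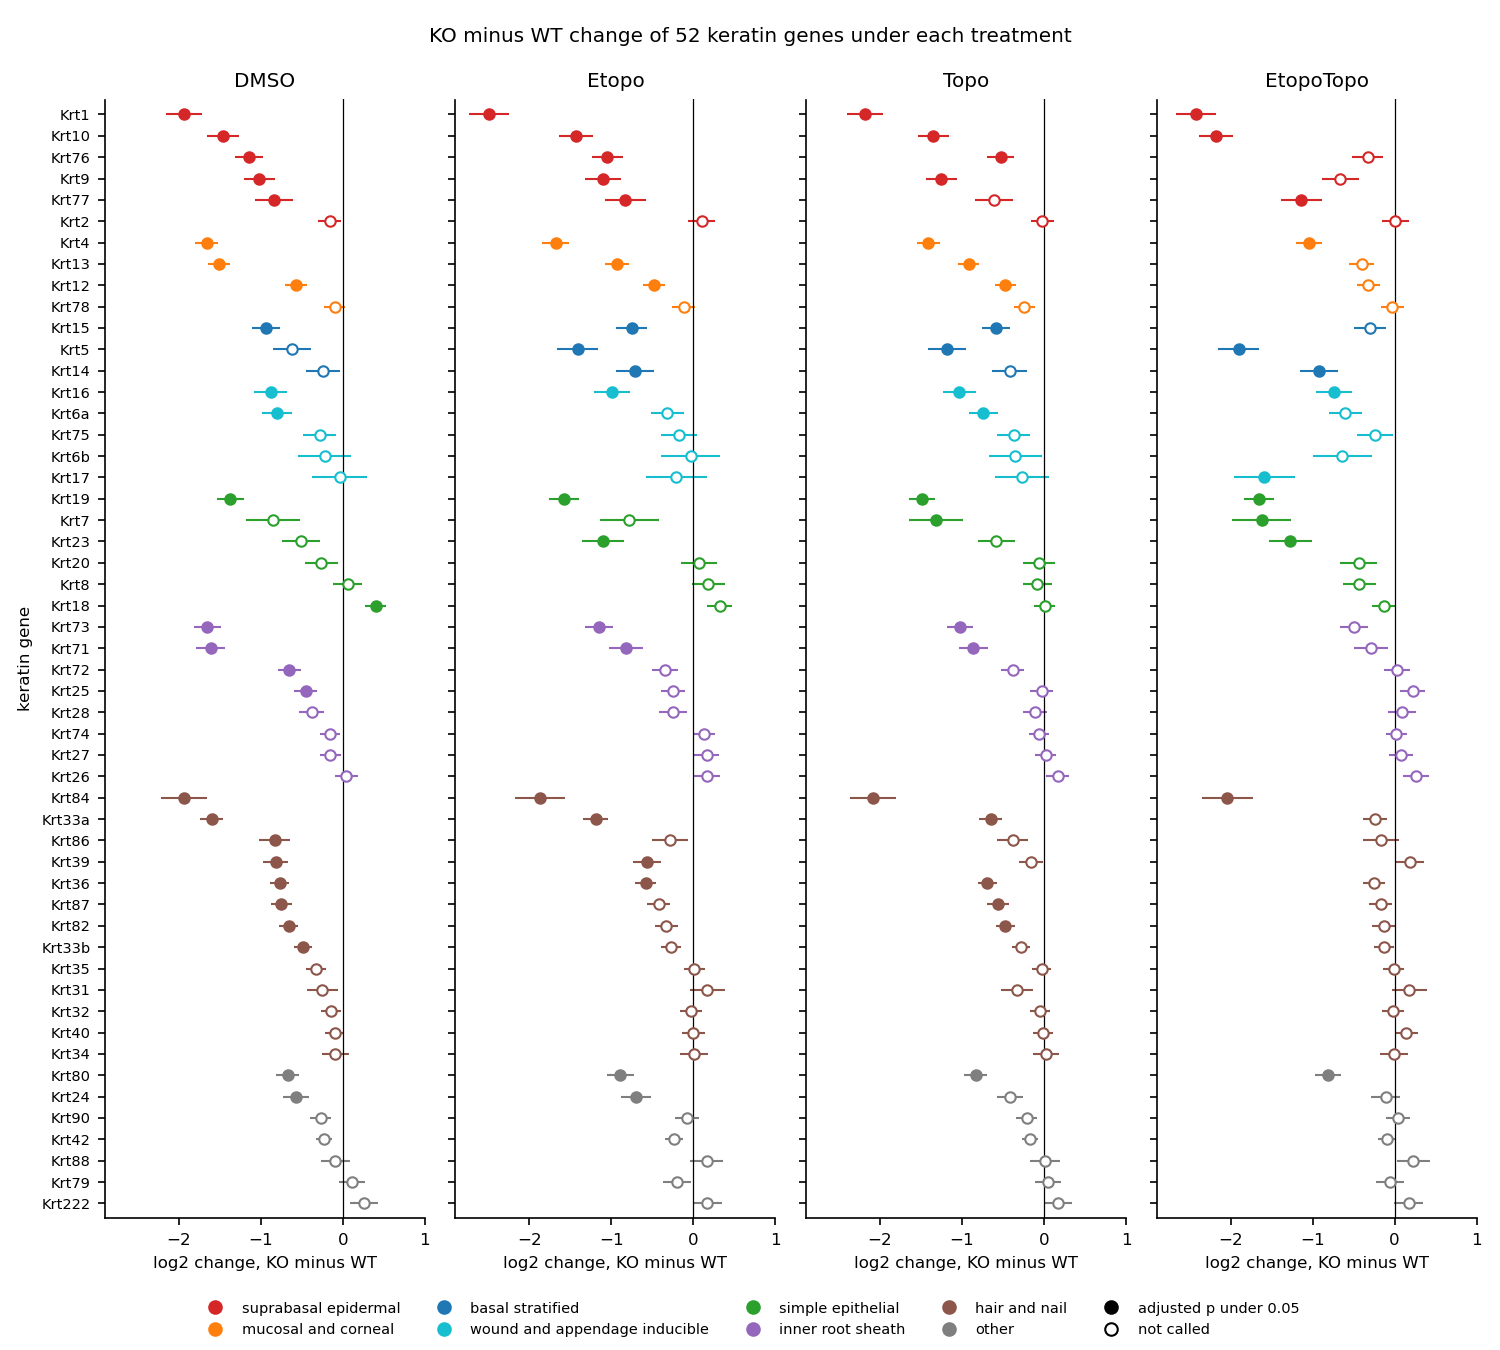
Change of each of the 52 keratin genes (rows, coloured by class) in KO relative to WT on the log2 scale, with 1 panel per treatment. Points are differences of group means, bars are the SE, and filled points had an adjusted p under 0.05. Under DMSO 26 filled points lie left of 0 and 1 (Krt18) lies right of it, and under EtopoTopo 13 lie left.

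The suprabasal epidermal keratins fell in 5 of 6 members under DMSO (median change -1.08). Krt1, the type II keratin with which differentiating epidermal cells replace their basal keratins, was at 7.99, 7.51 and 7.54 on the KO DMSO arrays, against 9.77, 9.94 and 9.12 on the WT DMSO arrays. The groups did not overlap, and the KO values lay 3.8-fold below WT (log2 change -1.93, SE 0.22, adjusted p = 8.65e-07). Krt10, its type I partner, was at 9.64, 9.48 and 9.63 in KO DMSO and at 11.17, 11.27 and 10.67 in WT DMSO, again with no overlap (log2 change -1.46, SE 0.19, adjusted p = 4.81e-06). Both partners of this pair fell under each of the 4 treatments. Krt1 changed by -2.49 (SE 0.24) under Etopo, -2.18 (SE 0.22) under Topo and -2.42 (SE 0.24) under EtopoTopo. Krt10 changed by -1.43 (SE 0.21), -1.35 (SE 0.19) and -2.18 (SE 0.21) under the same treatments. Krt76, a keratin of the palate and gums, Krt9, of the epidermis of palms and soles, fell together with Krt77 under DMSO by 1.14, 1.02 and 0.84 on the log2 scale (in the order Krt76, Krt9, Krt77), while Krt2 changed by -0.16, was below the dim level and was not called.

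Promoter sequence was available for 36 of the 52 keratins in the RefSeq table of mouse build GRCm38.p6, as windows from 250 bases before to 50 bases after the start, which gave 37 windows. The letters TATAAA, searched on both strands, stood in 19 of the 37 keratin windows (51.4%), against 13.6% of all 32851 windows in the table. On the forward strand within -35 to -20 of the start they stood in 12 keratin windows (32.4%) and in 1.84% of all windows. They were in 9 of 17 windows of keratins that fell in KO under DMSO (52.9%) and in 10 of 20 windows of the other keratins (50%). The AP-1 core TGANTCA, whose letters with N read the same on both strands, was found in 2 keratin windows (5.41%), both of Krt13, against 7.81% of all windows. The Krt10 window (chr11:99389315-99389614, minus strand) is shown as that of the suprabasal keratin with sequence that fell most, with TATAAA at -26 in capitals.
Krt10: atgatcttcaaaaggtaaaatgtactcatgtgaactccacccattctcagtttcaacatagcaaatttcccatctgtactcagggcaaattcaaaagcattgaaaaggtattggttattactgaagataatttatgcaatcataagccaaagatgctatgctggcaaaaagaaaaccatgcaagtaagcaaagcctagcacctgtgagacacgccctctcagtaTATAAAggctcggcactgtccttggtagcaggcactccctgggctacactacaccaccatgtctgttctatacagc

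Mucosal keratins fell as clearly. Krt4, the type II keratin of oesophagus and oral mucosa, was at 6.66, 6.76 and 6.93 in KO DMSO, against 8.44, 8.68 and 8.20 in WT DMSO (log2 change -1.66, SE 0.14, adjusted p = 1.2e-08). Its partner Krt13 was at 6.83, 6.82 and 7.06 in KO DMSO and at 8.31, 8.69 and 8.24 in WT DMSO (log2 change -1.51, SE 0.13, adjusted p = 2.33e-08). The KO arrays sat around the dim level of that group, 6.93, and the WT arrays above theirs, 7.02. Krt12, the keratin of the corneal surface, changed by -0.57 (SE 0.13) and was called, and Krt78 changed by -0.10 and was not. Krt4 fell under the other treatments too, with changes of -1.68, -1.41 and -1.04 under Etopo, Topo and EtopoTopo. Krt13 changed by -0.93, -0.92 and -0.40, and the last of these was not called (adjusted p = 0.0942).

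Among the hair and nail keratins, 8 of 13 fell under DMSO (median change -0.66). All 13 means were lower in KO, although Krt34 and Krt40 changed by only -0.09 and -0.1. Krt84, a type II hair keratin known in human from the tongue's filiform papillae, had about the same change as Krt1 under DMSO. Its values were 7.14, 7.73 and 7.50 in KO DMSO and 9.46, 9.75 and 9.0 in WT DMSO (log2 change -1.94, SE 0.28, adjusted p = 2.03e-05). The gap stayed under Etopo, Topo and EtopoTopo, at -1.87, -2.09 and -2.04, each with all KO arrays below all WT arrays. Krt33a, a type I hair keratin, was at 6.79, 6.64 and 6.80 in KO DMSO, against 8.38, 8.42 and 8.23 in WT DMSO (log2 change -1.60, SE 0.14, adjusted p = 1.35e-08). For Krt33a the change was -1.19 under Etopo and -0.65 under Topo, both called, and -0.24 under EtopoTopo, where the groups overlapped and it was not called. The other members called under DMSO were Krt33b, Krt36, Krt39, Krt82, Krt86 and Krt87, with changes from -0.83 to -0.49.

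Of the 8 inner root sheath keratins 4 fell under DMSO, all but 1 of 8 means were lower in KO, and Krt71 and Krt73 had the largest changes of the class. Both are type II keratins of the layer that moulds the growing hair. Krt71 was at 6.82, 7.38 and 7.72 in KO DMSO and at 9.04, 9.11 and 8.62 in WT DMSO (log2 change -1.61, SE 0.18, adjusted p = 1.15e-06). Krt73 was at 7.02, 7.05 and 6.86 in KO DMSO, against 8.81, 8.63 and 8.45 in WT DMSO (log2 change -1.65, SE 0.16, adjusted p = 7.02e-08). Neither set of arrays overlapped. Krt72 and Krt25, the type I partner of Krt71, changed by -0.65 and -0.45 and were called. Under Etopo and Topo, Krt71 changed by -0.82 and -0.86 and Krt73 by -1.15 and -1.02, all called. Under EtopoTopo they changed by -0.29 and -0.49 and were not called, and 0 of 8 members of the class passed the test (1 at an unadjusted p under 0.05).

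The promoter windows of Krt71 (chr15:101743048-101743347, minus strand) and Krt73 (chr15:101802311-101802610, minus strand) are set side by side because these genes moved together between genotypes and under the inhibitors. Capitals mark TATAAA, at -40 in Krt71 and at -30 in Krt73.
Krt71: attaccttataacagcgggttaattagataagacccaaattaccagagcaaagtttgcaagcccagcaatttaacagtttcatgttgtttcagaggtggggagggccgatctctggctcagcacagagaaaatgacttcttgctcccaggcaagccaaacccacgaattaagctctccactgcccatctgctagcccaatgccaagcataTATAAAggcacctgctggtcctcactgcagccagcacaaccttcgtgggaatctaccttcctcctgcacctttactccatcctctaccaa
Krt73: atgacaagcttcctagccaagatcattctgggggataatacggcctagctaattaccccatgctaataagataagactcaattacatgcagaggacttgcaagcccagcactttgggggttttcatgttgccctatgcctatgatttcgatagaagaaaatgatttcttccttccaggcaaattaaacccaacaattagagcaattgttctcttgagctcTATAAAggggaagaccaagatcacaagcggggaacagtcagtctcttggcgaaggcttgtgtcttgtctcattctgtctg

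The simple epithelial keratins were divided. Krt8 and Krt18, the pair of single-layered epithelia, were among the 21 members that fell under none of the 4 treatments. Krt8 was at 13.39, 13.52 and 13.54 in KO DMSO and at 13.37, 13.51 and 13.37 in WT DMSO, with overlapping arrays (log2 change 0.06, not called). Krt18 was at 12.79, 12.78 and 12.86 in KO DMSO, against 12.59, 12.53 and 12.12 in WT DMSO (log2 change 0.40, SE 0.13, adjusted p = 0.0407). The call rested on WT DMSO 3, the lowest of the WT arrays and the 1 from a mouse of 4 weeks: without it the change was 0.25 (adjusted p = 0.269). In all, 13 of 35 alternative fits lost it. Krt19, a type I chain of ducts that lacks the usual tail domain, went the other way from Krt18. Its values were 8.53, 8.89 and 8.57 in KO DMSO and 10.14, 10.09 and 9.86 in WT DMSO (log2 change -1.37, SE 0.16, adjusted p = 1.67e-06), and it fell by 1.58, 1.49 and 1.65 under Etopo, Topo and EtopoTopo. Krt7, a keratin of ducts and glands, changed by -0.85 under DMSO (adjusted p = 0.075) and -0.78 under Etopo (adjusted p = 0.203), not called, and by -1.32 under Topo and -1.62 under EtopoTopo, both called. The EtopoTopo call of Krt7 was lost without KO EtopoTopo 1 and the Topo call without KO Topo 1. With both of these arrays left out, Krt7 was still lower in KO under every treatment. Its changes were then -0.85, -0.78, -0.86 and -0.93 under DMSO, Etopo, Topo and EtopoTopo. With all arrays kept, every KO array of Krt7 was below every WT array of the same treatment in all 4 comparisons.

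The Krt18 window (chr15:102027966-102028265, plus strand) is printed as that of 1 keratin that did not fall. It does not stand for the others: TATAAA was in 50% of their windows and in 52.9% of those of keratins that fell. The window of its partner Krt8 holds TATAAA, and the median number of CpG dinucleotides was 6 in the other keratins and 4 in those that fell. The Krt18 window holds no TATAAA and 17 CpG dinucleotides, against a median of 5 over the keratin windows and 7 over all windows.
Krt18: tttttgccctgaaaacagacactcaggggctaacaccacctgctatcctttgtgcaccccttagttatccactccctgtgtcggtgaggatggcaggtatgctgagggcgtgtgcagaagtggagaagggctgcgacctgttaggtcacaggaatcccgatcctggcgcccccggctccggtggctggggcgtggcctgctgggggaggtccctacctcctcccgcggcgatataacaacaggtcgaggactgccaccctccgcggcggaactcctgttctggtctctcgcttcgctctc

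Of the basal pair, neither member was called under DMSO, although all KO arrays lay below all WT arrays for each. Krt5 was at 10.69, 10.86 and 10.95 in KO DMSO and at 11.36, 11.63 and 11.37 in WT DMSO (log2 change -0.62, SE 0.23, adjusted p = 0.0591). Under the inhibitors the gap in Krt5 was -1.41 (Etopo), -1.18 (Topo) and -1.90 (EtopoTopo), all called. The difference of this gap from that under DMSO was not called for Etopo (-0.79) or Topo (-0.56). For EtopoTopo it was called (-1.28), but 23 alternative fits lost that call and 11 kept it. The type I partner Krt14 changed by -0.24 under DMSO (not called), -0.71 under Etopo (called), -0.42 under Topo (not called) and -0.92 under EtopoTopo (called; -0.71 with an adjusted p of 0.172 without KO EtopoTopo 1). Krt15, a keratin of basal and hair follicle stem cells, fell under DMSO by 0.94 on the log2 scale. Of the wound and appendage inducible keratins, Krt16 fell under all 4 treatments (changes -0.88, -0.99, -1.03 and -0.74 under DMSO, Etopo, Topo and EtopoTopo). The DMSO call of Krt16 was lost without KO DMSO 1 and WT DMSO 1, the arrays of highest thymocyte signal (change -0.55, adjusted p = 0.0953), and the EtopoTopo call without either KO EtopoTopo array (adjusted p = 0.149 and 0.0562) or without WT EtopoTopo 1 and 2 (adjusted p = 0.294). Krt6a, its partner, was called under DMSO (-0.80) and Topo (-0.74) only.

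**Figure D2:**
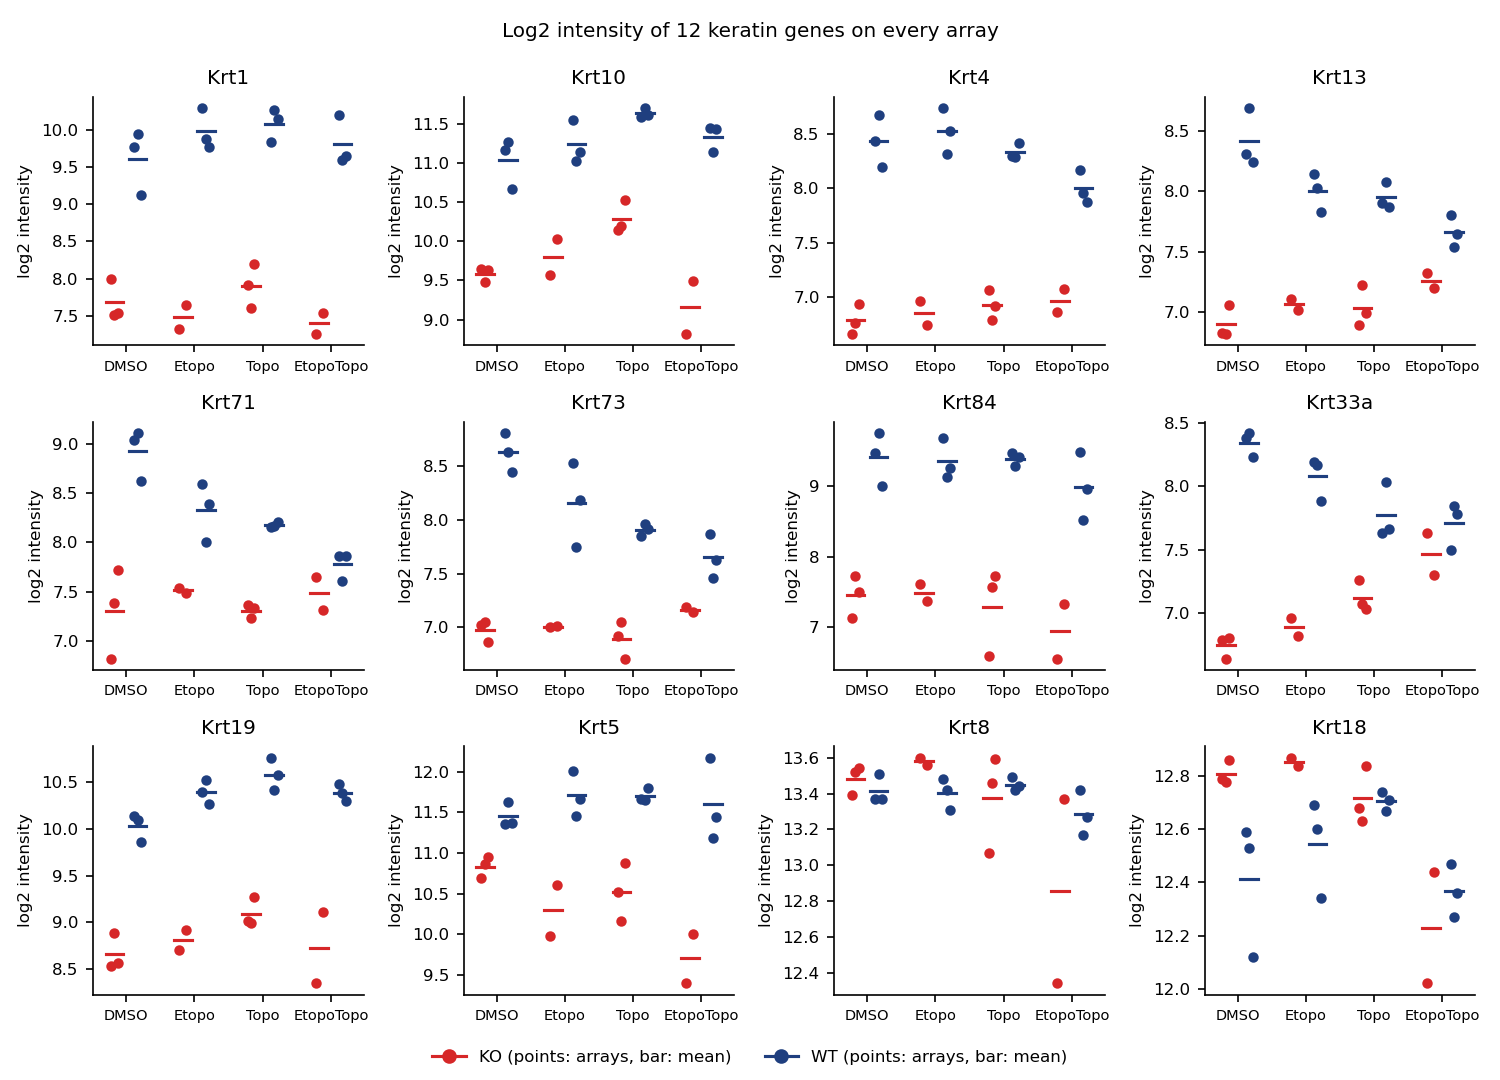
Log2 intensity (vertical axes, each with its own range) of 12 keratins on all 22 arrays, by treatment, with KO left of WT. Points are arrays and bars group means. The KO arrays of Krt1, Krt10, Krt4, Krt84 and Krt19 lie below all WT arrays under every treatment, while those of Krt8 overlap the WT arrays under DMSO.

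The 4 comparisons of KO with WT use separate arrays but a common estimate of the spread. Their calls are set side by side but are not fully independent. Under Etopo 22 keratins fell and 0 rose (8.07% of all genes fell and 4.5% rose), under Topo 21 fell and 0 rose (9.62% and 5.37%), and under EtopoTopo 13 fell and 0 rose (6.12% and 4.32%). The median keratin change was -0.32, -0.38 and -0.24 under Etopo, Topo and EtopoTopo, against 0.04, -0.04 and 0.03 over all genes. Falls under all 4 treatments were seen in 7 members, against 3.06% of all genes: Krt1, Krt4, Krt10, Krt16, Krt19, Krt80 and Krt84. For 19 members every KO array was below every WT array of the same treatment in all 4 comparisons (6.2% of all genes), and for 33 the KO mean was lower in all 4 (22.1%). At least 1 fall was seen in 31 members (16.9%) and at least 1 rise in 1, Krt18 (10.4%). Without KO Etopo 1 the Etopo count was 13, and without KO EtopoTopo 1 the EtopoTopo count was 9: Krt7, Krt14, Krt16, Krt17, Krt23 and Krt77 were no longer called, and Krt6a and Krt9 were. Without WT EtopoTopo 1 and 2 the EtopoTopo count was 7.

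Of the members outside the named epithelia, Krt80, a type II keratin found in many epithelia, fell under all 4 treatments. It was at 8.85, 8.52 and 8.63 in KO DMSO, against 9.38, 9.43 and 9.19 in WT DMSO (log2 change -0.67, SE 0.14, adjusted p = 0.0016), and changed by -0.89, -0.83 and -0.81 under Etopo, Topo and EtopoTopo. Krt24 fell under DMSO (-0.57) and Etopo (-0.70), and Krt23, grouped with the simple keratins, under Etopo (-1.10) and EtopoTopo (-1.27). Under Topo, Krt23 was not called. It was at 9.81, 8.70 and 8.93 on KO Topo 1, 2 and 3, against 9.68, 9.87 and 9.63 in WT Topo. Under DMSO the KO arrays lay below the WT arrays for Krt80 and Krt24, and overlapped them for Krt23.

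The 21 members that fell under no treatment included Krt8 and Krt18, the intestinal keratin Krt20, the inducible keratins Krt6b and Krt75, and hair keratins beside others that fell. Krt20 was at 9.07, 9.30 and 9.74 in KO DMSO and at 9.86, 9.74 and 9.29 in WT DMSO, with overlapping arrays (log2 change -0.26, adjusted p = 0.424). Krt79, a keratin of sebaceous ducts, was at 9.29, 9.60 and 9.38 in KO DMSO, against 9.35, 9.59 and 8.98 in WT DMSO (log2 change 0.11, adjusted p = 0.709). Of the hair keratins, Krt34 had a change of -0.09 (SE 0.16) and Krt40 of -0.10 (SE 0.12), and Krt31 one of -0.25 (SE 0.19), all with overlapping arrays. Krt35 had all KO DMSO arrays below all WT DMSO arrays but missed the threshold (log2 change -0.33, adjusted p = 0.0571). Krt222, Krt42, Krt88, Krt90 and Krt27 changed by 0.26, -0.23, -0.09, -0.27 and -0.15 under DMSO, and the dim Krt26, Krt28, Krt32 and Krt74 by 0.04, -0.38, -0.14 and -0.16, none of them called.

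Other genes of the keratin system had median changes closer to 0 under DMSO, where 12% of all genes fell (8.07%, 9.62% and 6.12% under Etopo, Topo and EtopoTopo). Of 16 other intermediate filament genes, 6 fell and 1 rose in KO under DMSO (median change -0.27). The neurofilament light chain Nefl fell by 2.65 on the log2 scale, the neuronal filament genes Ina and Prph by 0.90 and 0.88, and the muscle filament gene Des rose by 0.97. Of 21 desmosomal and linker genes, 2 fell and 1 rose under DMSO (median -0.11), near the share of all genes, and 4, 6 and 6 fell under Etopo, Topo and EtopoTopo with 1 rise each. Perp, which holds desmosomes together in stratified epithelia, was called under every treatment (changes -0.73, -1.02, -0.96 and -0.77 in the order DMSO, Etopo, Topo, EtopoTopo). Plakoglobin (Jup) and desmoplakin (Dsp), which link keratins to the junction, were called under the 3 inhibitor treatments, with Jup at -0.66, -0.63 and -1.03 and Dsp at -0.57, -0.62 and -0.98. Of 24 regulators of keratin genes (median -0.10 under DMSO), 4, 3, 4 and 5 fell and 0 rose under DMSO, Etopo, Topo and EtopoTopo. Klf5 (changes -0.71, -0.84, -0.76 and -1.16) and Grhl2 (changes -0.46, -0.83, -0.92 and -1.16), factors of epithelial progenitors and junctions, were called each time. Of 44 keratin-associated (Krtap) genes, whose products cross-link hair keratins, 5 fell under DMSO (median -0.15), near the share of all genes, and 1, 0 and 0 under Etopo, Topo and EtopoTopo.

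Marker counts are set beside the share of all genes: 12% fell and 7.4% rose in KO under DMSO. Under Etopo, Topo and EtopoTopo, 8.07%, 9.62% and 6.12% of all genes fell. Of 13 markers of cornified MECs other than keratins, 7 fell in KO under DMSO (median change -0.69) and 7, 3 and 6 under Etopo, Topo and EtopoTopo, with 0 rises. The differences in group means of these 13 markers ran from Klk5, at 6.33 in KO DMSO and 8.88 in WT DMSO, to Sbsn, at 9.51 in KO DMSO and 9.28 in WT DMSO. Their mean per array was 9.11 to 9.21 in KO DMSO, against 9.59 to 9.85 in WT DMSO. All 13 were above the dim level in at least 1 group and 12 in every group. The mean of hair follicle and skin genes other than keratins was 7.10 to 7.28 in KO DMSO and 7.51 to 7.73 in WT DMSO, with 5 of 7 above the dim level in every group and 4 of 7 lower by the test. Of 10 macrophage and dendritic cell markers 3 fell and 1 rose under DMSO (median -0.32), with array means of 8.07 to 8.22 in KO DMSO and 8.39 to 8.58 in WT DMSO, and 9 of them above the dim level in at least 1 group. Of 10 stromal and endothelial markers 3 fell and 0 rose (median -0.24), with means of 7.83 to 8.08 in KO DMSO and 8.13 to 8.40 in WT DMSO, and 9 above the dim level in at least 1 group. The part of these 4 lists in the keratin result was not tested.

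The keratin genes lie in a type I cluster on chromosome 11 and a type II cluster on chromosome 15, which also holds Krt18. In gene order, 13 of the 27 keratins on chromosome 11 and 13 of the 25 on chromosome 15 fell in KO under DMSO. The longest run was of 5 neighbours, Krt36, Krt13, Krt15, Krt19 and Krt9, on chromosome 11, followed by a run of 4, Krt1, Krt77, Krt76 and Krt4, on chromosome 15. Both runs mix classes. In all, 13 of 50 neighbouring pairs had both members falling. With 26 of 52 keratins falling, neighbours that both fell would occur in any gene order. Whether the runs or pairs exceed that was not tested.

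**Figure D3:**
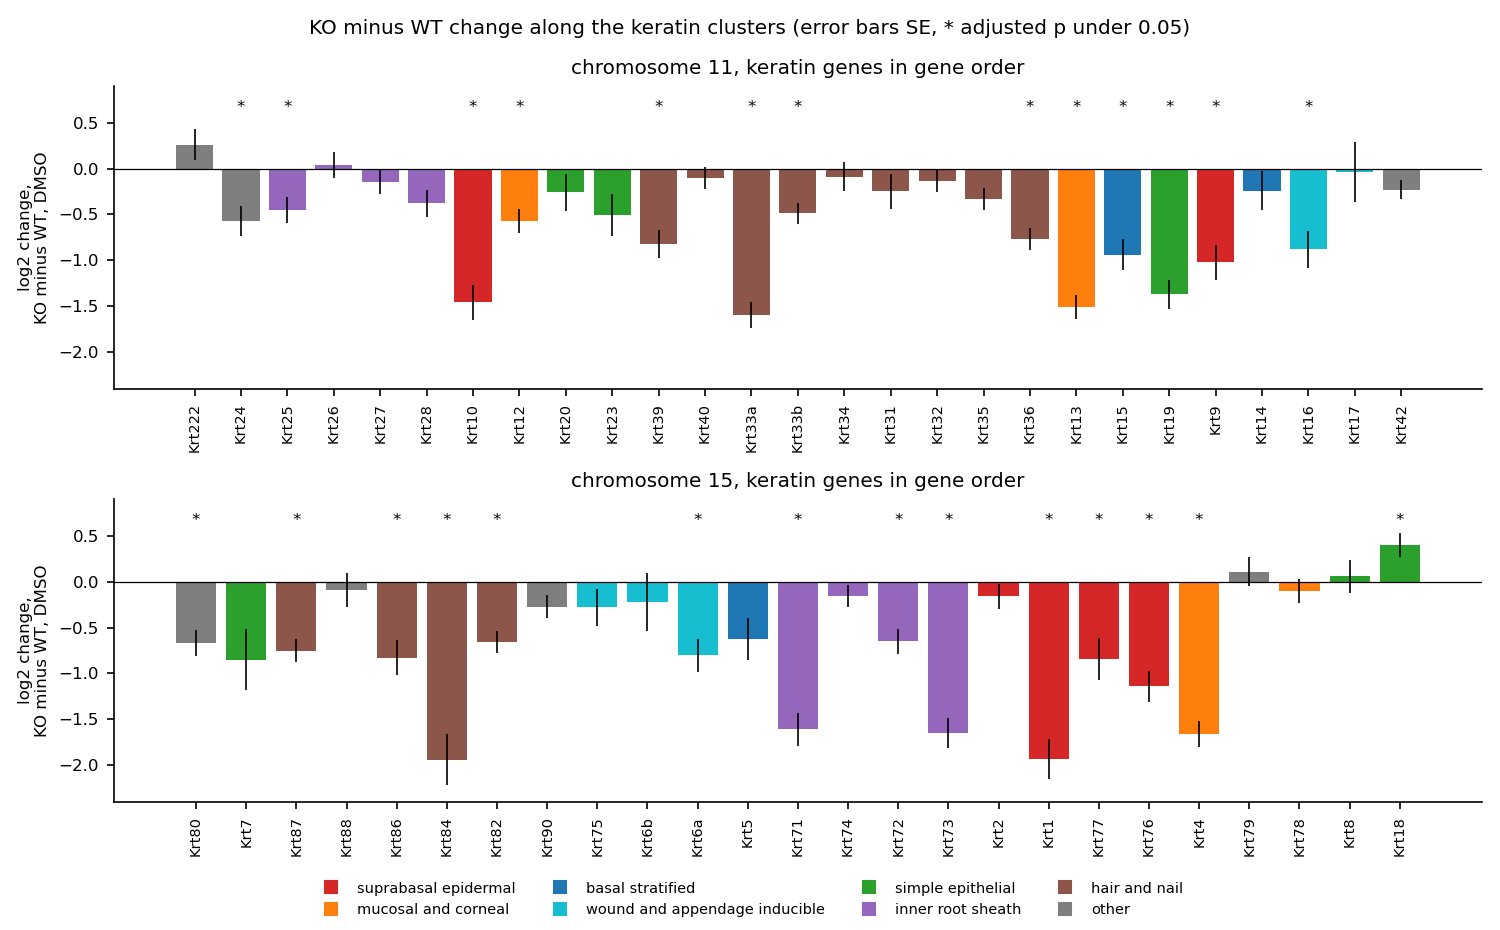
KO minus WT change under DMSO on the log2 scale (bars, with the SE) of the keratins in their gene order on chromosomes 11 and 15, coloured by class. Asterisks mark an adjusted p under 0.05. The run of 5 lower keratins from Krt36 to Krt9 and the run of 4 from Krt1 to Krt4 stand next to keratins that were not called.

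In WT MECs a smaller set of keratins was lower with inhibitors than under DMSO. The root sheath keratins Krt71 and Krt73 and the hair keratin Krt33a were called under Topo and EtopoTopo. The palate keratin Krt76 and the mucosal keratin Krt13 were called under EtopoTopo only, while Krt1 and Krt10 did not pass the test. All WT EtopoTopo arrays were from mice of 4 weeks, against 1 of the WT DMSO arrays. The inhibitor comparisons of a genotype share their DMSO arrays. Under Etopo, 0 keratins were called (limma; 4 at an unadjusted p under 0.05), where 0.00506% of all genes were called. All 8 inner root sheath and all 13 hair and nail means were below DMSO, with changes from -0.60 to -0.05 and from -0.36 to -0.01. The median of the mostly silent receptor genes was lower too, at 5.15 in WT Etopo and 5.25 in WT DMSO. Changes of about that size cannot be told from background. Under Topo, 3 keratins fell and 0 rose (2.21% of all genes were called, 1.38% falling and 0.83% rising): Krt71 by 0.75, Krt73 by 0.72 and Krt33a by 0.57 on the log2 scale. Krt71 was at 8.15, 8.16 and 8.21 in WT Topo, below all WT DMSO arrays (adjusted p = 0.0334). These calls were lost without WT DMSO 1 (0 called) and without the 3 arrays labelled male (0 called, changes -0.69, -0.66 and -0.68 for Krt71, Krt73 and Krt33a). Without KO EtopoTopo 1, 5 were called, Krt10 and Krt19 rising beside these 3.

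Under EtopoTopo, 12 keratins fell in WT MECs and 0 rose, where 7.28% of all genes fell and 3.6% rose. The median keratin change was -0.16, against -0.01 over all genes. Krt71 was at 7.86, 7.61 and 7.86 in WT EtopoTopo (log2 change from WT DMSO -1.15, SE 0.18, adjusted p = 0.000406). Krt76 was at 7.83, 7.65 and 7.79 in WT EtopoTopo, against 9.07, 9.13 and 8.43 in WT DMSO (log2 change -1.12, SE 0.17, adjusted p = 0.000261). Krt73 was at 7.87, 7.46 and 7.63 in WT EtopoTopo (log2 change -0.98, SE 0.16, adjusted p = 0.000384), and Krt13 at 7.80, 7.54 and 7.65 (log2 change -0.75, SE 0.13, adjusted p = 0.00093). No array of WT EtopoTopo overlapped WT DMSO for these 4 genes, also against WT DMSO 3 alone, which shares the age of 4 weeks. The other members called were Krt9 (-0.75), Krt86 (-0.68), Krt25 (-0.65), Krt33a (-0.64), Krt39 (-0.58), Krt24 (-0.50), Krt87 (-0.46) and Krt4 (-0.44).

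By class, 3 of 8 inner root sheath, 4 of 13 hair and nail, 2 of 4 mucosal and corneal, 2 of 6 suprabasal, 1 of 7 other and 0 of 14 basal, inducible and simple keratins fell in WT EtopoTopo. Krt1 and Krt10 changed by 0.20 and 0.30, Krt19 by 0.35 and Krt23 by 0.46, none of them called. Krt84 was at 9.48, 8.52 and 8.95 in WT EtopoTopo, overlapping the WT DMSO arrays. With age as a covariate 4 keratins were called (Krt71, Krt73, Krt76 and Krt13), without WT DMSO 2 and without the arrays labelled male 6 each, and without WT EtopoTopo 1 and 2, whose labels conflict, 2 (Krt73 and Krt76). Beside these changes, 9 of 10 tuft cell markers rose in WT EtopoTopo (median change 1.24), where 3.6% of all genes rose. In WT EtopoTopo the mean of mature MEC markers was 11.32 to 11.45, against 11.70 to 11.84 in WT DMSO, and the silent receptor genes had a median change of 0.31. The part of these marker and receptor gene changes in the keratin changes was not tested.

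**Figure D4:**
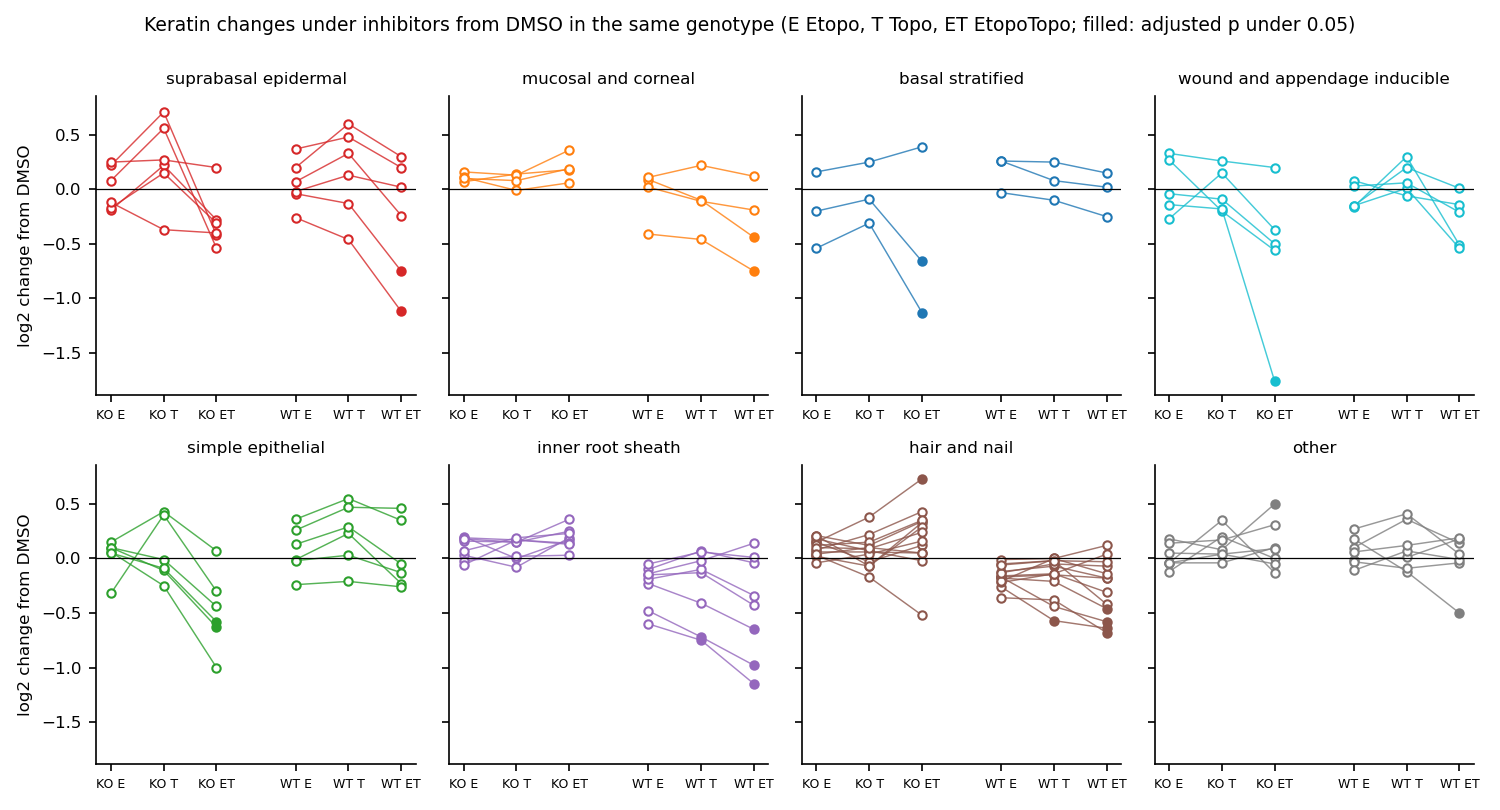
Log2 change of each keratin from DMSO of the same genotype (vertical axis), by class, with Etopo (E), Topo (T) and both (ET) joined by a line per gene, KO left and WT right. Filled points had an adjusted p under 0.05. In WT the filled points under both inhibitors lie below 0, and in KO the filled points stand only under both inhibitors.

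In KO MECs, 0 keratins were called under Etopo (limma; 1 at an unadjusted p under 0.05; 0% of all genes called) and 0 under Topo (5 at an unadjusted p under 0.05; 1.03% of all genes called, 0.78% falling and 0.253% rising). Krt71 was at 7.36, 7.23 and 7.33 in KO Topo and Krt73 at 6.92, 7.05 and 6.71. Both overlapped their KO DMSO arrays, whose means of 7.31 and 6.98 stood beside a dim level of 6.93. The change with the smallest p under Topo was of Krt10, at 10.14, 10.20 and 10.53 in KO Topo, above all KO DMSO arrays (log2 change 0.71, SE 0.19, adjusted p = 0.07).

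Under EtopoTopo, 5 keratins fell and 2 rose in KO MECs, where 11.7% of all genes fell and 11.1% rose (22.8% called), so the share of keratins called was below that of all genes. The falls were of basal, simple and inducible keratins: Krt17, induced in wounds and hair follicles (-1.76), Krt5 (-1.13), Krt14 (-0.66), Krt8 (-0.63) and Krt18 (-0.58). Krt33a (0.73) and Krt90 (0.50) rose. Krt17 was at 9.80 on KO EtopoTopo 1 and 12.22 on KO EtopoTopo 2, against 12.61, 12.86 and 12.81 in KO DMSO. Without KO EtopoTopo 1, the array of narrowest range, 0 keratins were called, and the changes of Krt17, Krt5, Krt14, Krt8 and Krt18 were -0.55, -0.83, -0.45, -0.11 and -0.37, and those of Krt33a and Krt90 were 0.56 and 0.24. Without KO EtopoTopo 2, 19 were called. Each of these fits has 1 array in the group, whose spread is assumed to be that of the other groups. The silent receptor genes had a median change of 0.49 in KO EtopoTopo, and 20 of 44 Krtap genes rose beside them. Age and treatment cannot be told apart here, since both KO EtopoTopo arrays were from mice of 4 weeks and all KO DMSO arrays from mice of 6 weeks.

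**Figure D5:**
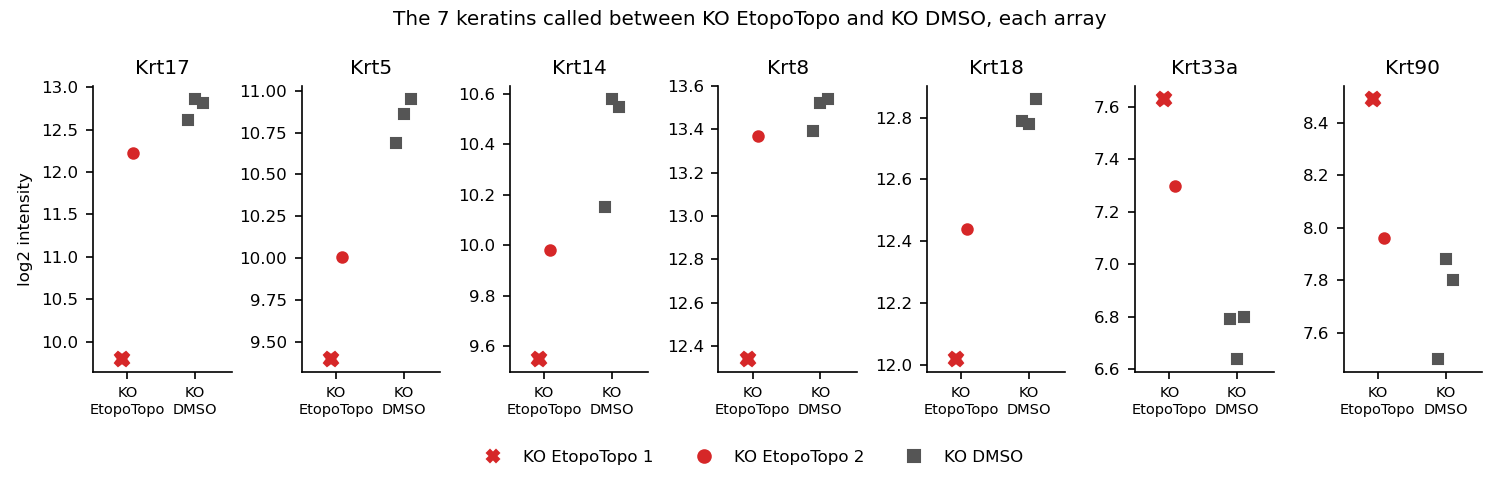
Log2 intensity (vertical axes, each with its own range) of the 7 keratins called between KO EtopoTopo (left) and KO DMSO (right) on each array. KO EtopoTopo 1 (cross) lies farther from the KO DMSO squares than KO EtopoTopo 2 (circle) for all 7, as for Krt17, at 9.80 and 12.22.

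The inhibitor effects were then compared between genotypes (KO effect minus WT effect). For Etopo 0 keratins were called (0% of all genes; limma) and for Topo 0 (0.0759% of all genes). For EtopoTopo 6 of 52 were called, against 2.46% of all genes (2.35% with a positive and 0.106% with a negative difference). Krt33a (1.36, SE 0.20), Krt71 (1.32, SE 0.28), Krt73 (1.16, SE 0.23), Krt13 (1.11, SE 0.20) and Krt39 (1.01, SE 0.23) had positive differences, with falls in WT and changes of 0.73, 0.17, 0.19, 0.36 and 0.43 in KO. Krt5 had a negative one (-1.28, SE 0.34), with a change of 0.15 in WT. The call of Krt5 was lost in 23 alternative fits and kept in 11. In KO DMSO, Krt33a (6.74), Krt13 (6.90) and Krt73 (6.98) stood near the dim level of 6.93, Krt39 (5.66) below it and Krt71 (7.31) above it. The median of the mostly silent receptor genes was 5.15 in KO DMSO and 5.69 in KO EtopoTopo, and 5.25 in WT DMSO and 5.6 in WT EtopoTopo. Rises in KO of about that size or less cannot be told from background. Without KO EtopoTopo 1 the calls of Krt33a and Krt13 held (differences 1.20 and 1.05, adjusted p = 0.0124 and 0.0347) and those of the other 4 were lost, with differences of 1.14 for Krt73, 1.14 for Krt71, 0.73 for Krt39 and -0.97 for Krt5. That fit has 1 array of KO EtopoTopo, assumed to vary like the other groups. Without KO EtopoTopo 2, 20 were called.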

How the data were processed

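Linear intensity values of 22 arrays were deposited by the authors. The submitters' processing notes name RMA and Affymetrix Power Tools. Where the design had assumed log2 values, the intensities were transformed to log2 with no pseudocount. Of 24922 probes, 21425 had 1 symbol, 1399 several and 2098 none; 21347 Entrez identifiers matched the RefSeq table (GRCm38.p6) and 0 symbols changed. For 921 genes with several probes, that of highest mean was kept.

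A fit of 8 group means over all 22 arrays was made with limma 3.58.1 in R 4.3.3 (lmFit, eBayes, 14 residual degrees of freedom), with Benjamini-Hochberg adjustment per comparison over 19752 genes. The number of arrays limits the precision. The script was tested on simulated data. The keratins, classes and lists were chosen with earlier results of these data known. Named members were, per comparison, up to 8 called highest and 8 lowest, keratin pairs, and up to 4 called genes of each other list. Others named, and the promoters shown, were chosen after their values were seen. Krt81, Krt83 and Krt85 had no probe with a single symbol and were not analysed here. Alternatives were normalization, a filter on dim probes, trend and robust variance, array weights, age, replicate block, each comparison's own arrays and leaving out arrays. Same-numbered arrays did not deviate together (median correlation -0.0455 over 71 pairs, against 0.000709 over 140 others).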

Additional observations from a re-analysis of the deposited data

Results flagged for a closer look

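The effect of EtopoTopo on 6 keratins differed between genotypes by the test of the difference itself (KO effect minus WT effect, limma). The difference was 1.36 for Krt33a (SE 0.20, adjusted p = 0.000703), with all WT EtopoTopo arrays below all WT DMSO arrays. For Krt13 it was 1.11 (SE 0.20, adjusted p = 0.00353), for Krt73 1.16 (SE 0.23, adjusted p = 0.00808) and for Krt71 1.32 (SE 0.28, adjusted p = 0.0107). For Krt39, below the dim level in every group, it was 1.01 (SE 0.23, adjusted p = 0.0181). In KO DMSO, Krt33a, Krt13 and Krt73 already stood near the dim level of 6.93 and Krt39 below it. That leaves little room for a fall in KO, so for these genes a smaller effect in KO cannot be told from this limit. The median of the mostly silent receptor genes was also higher under EtopoTopo, at 5.69 against 5.15 under DMSO in KO and 5.6 against 5.25 in WT. The part of this shift in the differences was not tested. Krt5 had a difference of -1.28 (SE 0.34, adjusted p = 0.0466), a call that 23 alternative fits lost and 11 kept. Without KO EtopoTopo 1, which leaves 1 array in that group, the difference was 1.14 for Krt73 (adjusted p = 0.0587), 1.14 for Krt71 (adjusted p = 0.131), 0.73 for Krt39 (adjusted p = 0.256) and -0.97 for Krt5 (adjusted p = 0.467).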

How the results depend on the processing

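Counts of keratins called when 1 array was left out ranged from 24 to 31 (27 in the report) for KO against WT under DMSO, 13 to 23 (22) under Etopo, 18 to 22 (21) under Topo and 9 to 15 (13) under EtopoTopo. The ranges were 0 to 0 (0) for WT Etopo, 0 to 5 (3) for WT Topo, 6 to 15 (12) for WT EtopoTopo, 0 to 0 (0) for KO Etopo, 0 to 1 (0) for KO Topo and 0 to 19 (7) for KO EtopoTopo. For the differences between genotypes they were 0 to 0 (0) for Etopo, 0 to 1 (0) for Topo and 2 to 20 (6) for EtopoTopo. Quantile normalization gave 5 for WT Topo, 1 for KO Topo, and differences of 1 (Topo) and 3 (EtopoTopo). The filter on dim probes, and likewise trend and robust variance, gave 1 for the Topo difference. Array weights, whose estimation did not converge fully, gave 5 for KO against WT under EtopoTopo, 5, 16 and 20 for WT Etopo, Topo and EtopoTopo, 4 and 0 for KO Topo and EtopoTopo, and 1, 6 and 0 for the 3 differences. Age as a covariate gave 5 and 4 for WT Topo and EtopoTopo, 0 for KO EtopoTopo and 1 for the Topo difference. Each comparison's own arrays gave 0 for KO EtopoTopo and 3 for its difference. Leaving out the 2 WT EtopoTopo arrays of conflicting label gave 7 for KO against WT under EtopoTopo, 2 for WT EtopoTopo and 2 for its difference. Leaving out WT DMSO 1 and KO DMSO 1 gave 0 for WT Topo and 3 for the EtopoTopo difference, leaving out the 3 arrays labelled male 0 for WT Topo and 6 for WT EtopoTopo, and leaving out KO EtopoTopo 1 and KO Topo 1 gave 8 for WT Topo, 0 for KO EtopoTopo and 3 for the EtopoTopo difference. The last 2 were chosen after seeing the data, as was leaving out WT DMSO 3 and WT Etopo 3, with 26, 19 and 21 for KO against WT under DMSO, Etopo and Topo and 4 for WT Topo. With the replicate number as a block, for samples that share only a number, the counts were 26, 21, 20 and 14 for KO against WT under DMSO, Etopo, Topo and EtopoTopo, 0, 3 and 11 for WT Etopo, Topo and EtopoTopo, 0, 0 and 6 for KO, and 0, 0 and 5 for the differences. Where an array left out leaves 1 in its group, that array is assumed to vary like the other groups. The causes of these shifts were not tested. Of 1964 refits of 57 named results, 1800 kept direction and call, 164 lost the call and 0 reversed. The 57 were chosen as called in the report. Leaving out an array of a group outside a comparison cannot move its log2 change, so part of this agreement was set in advance. Members near or below the dim level have little signal over background, which limits what can be seen of a fall in KO.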
